A study of Homo sapiens with 18 samples.

Results

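The genes described here are 10 secreted signals of the neutrophil response: the CXC chemokines CXCL1, CXCL2, CXCL3, CXCL5, CXCL6 and CXCL8, the colony-stimulating factors CSF2 and CSF3, and the cytokines IL6 and LIF. They were taken by symbol from a table of normalized counts of 35933 genes. Values were found for 9 of the 10, and CXCL5 was not analysed here. RNA was sequenced from 3 human breast epithelial lines of one lineage. MCF10A is spontaneously immortalized and not tumorigenic, MCF10AT1 is MCF10A with an added mutant HRas, and MCF10CA1h came from MCF10AT1 by serial passage as mouse xenografts, so it carries the mutant HRas as well. Each line was studied as a negative control CRISPR line and as a METTL3 CRISPR line, with 3 replicates (a, b and c) in each of the 6 groups, 18 libraries in all. METTL3 is the main m6A methyltransferase of mRNA. Cells of both kinds had received a Cas9 construct with mCherry, with a control guide or with a guide to exon 1 of METTL3, had been sorted for mCherry and had been grown from single cells. Each group is thus 1 clonal line, and the spread of its replicates holds no difference between clones. Neither the labels nor the methods say that replicates came from separate cultures, so the p-values measure only the spread between these libraries, which may be technical. All groups grew in the same medium with horse serum, insulin, hydrocortisone, cholera toxin and EGF.

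Neutrophils are drawn to a tissue mainly by CXC chemokines whose glutamate-leucine-arginine motif binds CXCR2 and, for CXCL6 and CXCL8, also CXCR1. CSF3 (G-CSF) drives the production and release of neutrophils, and CSF2 (GM-CSF) promotes the growth and survival of granulocytes and macrophages. IL6 and LIF are cytokines that signal through the shared receptor chain IL6ST (gp130) to STAT3. Epithelial cells make many of these signals in response to IL-1 and TNF, through the transcription factors NF-kB and AP-1, and AU-rich elements make several of their mRNAs short-lived.

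The 6 chemokine genes lie together on chromosome 4, within 358.7 kb from 73740519 to 74099196 of hg38, in the order CXCL8, CXCL6, CXCL1, CXCL5, CXCL3 and CXCL2. CSF2 lies on chromosome 5 (132073789 to 132076170), IL6 on chromosome 7 (22725884 to 22732002), CSF3 on chromosome 17 (40015361 to 40017813) and LIF on chromosome 22 (30240453 to 30246759). A promoter entry was found in RefSeq (GRCh38.p14) for 8 of the 10 members, all but CSF3 and LIF. The 130 bases before the annotated start are shown for 7 of them, 5′ to 3′. Members were not tested against each other in the data below. Capitals mark matches to GGNNTTTCC, a form of the NF-kB motif, searched on both strands.

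CXCL1 (chr4:73869263-73869392, plus strand): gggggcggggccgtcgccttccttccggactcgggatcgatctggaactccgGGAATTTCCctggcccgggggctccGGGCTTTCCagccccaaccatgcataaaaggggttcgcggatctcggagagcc
CXCL2 (chr4:74099196-74099325, minus strand): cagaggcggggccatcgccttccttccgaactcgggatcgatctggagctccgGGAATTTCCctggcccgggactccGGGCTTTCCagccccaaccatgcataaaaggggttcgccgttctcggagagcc
CXCL3 (chr4:74038690-74038819, minus strand): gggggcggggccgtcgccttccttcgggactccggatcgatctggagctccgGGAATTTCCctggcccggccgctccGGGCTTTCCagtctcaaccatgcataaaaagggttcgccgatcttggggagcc
CXCL8 (chr4:73740439-73740568, plus strand): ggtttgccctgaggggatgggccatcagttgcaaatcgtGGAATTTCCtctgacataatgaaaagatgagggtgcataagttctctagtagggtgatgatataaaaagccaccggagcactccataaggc
CXCL6 (chr4:73836548-73836677, plus strand): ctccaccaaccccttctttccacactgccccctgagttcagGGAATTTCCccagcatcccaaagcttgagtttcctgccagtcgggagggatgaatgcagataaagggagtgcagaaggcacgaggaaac
IL6 (chr7:22727070-22727199, plus strand): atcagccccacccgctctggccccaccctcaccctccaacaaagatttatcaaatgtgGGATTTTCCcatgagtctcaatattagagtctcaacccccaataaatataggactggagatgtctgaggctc
CSF2 (chr5:132073659-132073788, plus strand): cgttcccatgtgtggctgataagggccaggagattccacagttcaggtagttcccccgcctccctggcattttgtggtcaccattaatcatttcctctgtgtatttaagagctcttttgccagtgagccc

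In windows of 300 bases (250 before and 50 after the start), the motif was found in 7 of the 8 member promoters and in 6.26% of 35116 promoters of the whole table. CXCL1, CXCL2 and CXCL3 each held it at 2 places, the first of them 78, 77 and 78 bases before the start and the second 53 bases before it in each. CXCL8 held 1 match, 91 bases before the start, IL6 held 1 at 72 bases, and CSF2 had no match in this window. The AP-1 motif TGANTCA (7.71% of all promoters) was found in CXCL8 alone of the 8, 137 bases before the start, and so was TATAAA (11.5% of all promoters), 31 bases before it. A match is a run of letters and not a measured binding site. The likeness extends to the mRNAs. Of the distinct 31-base words in its transcripts, CXCL2 shared 23.5% with other members, CXCL1 13.1% and CXCL3 9.23%, while CXCL8, CSF2, CSF3, IL6 and LIF shared none. Reads from the shared stretches of CXCL1, CXCL2 and CXCL3 can be split between them, so the values of each are uncertain to that extent.

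The values are counts that the authors normalized between libraries, not per length, so levels are compared between groups and not between genes. They summed to between 21347352 and 31681834 per library, and the library with the highest sum was replicate b of the MCF10AT1 control. METTL3 itself was not lower by the test in the METTL3 CRISPR line of MCF10A (log2 difference 0.33, adjusted p = 0.618) or MCF10AT1 (-0.17, adjusted p = 0.707), and was lower in that of MCF10CA1h (-0.49, adjusted p = 0.0234). The last call was lost without the intensity trend, in the fit of all 18 libraries, and without control c or labelled knockdown b of MCF10CA1h (adjusted p of up to 0.501). METTL3 protein, on which the authors chose their lines, was not measured in these libraries. These groups are therefore called the labelled knockdown. All adjusted p-values come from limma on log2(normalized count + 1), with Benjamini-Hochberg adjustment over all genes tested and a threshold of 0.05. The 12 epithelial markers checked had a mean of at least 10 in every group except for 1 marker in the labelled knockdown of MCF10AT1. PTPRC, the pan-leukocyte marker, was listed at 0 in both groups of MCF10AT1 and in the MCF10CA1h control. Its mean was under 1 in the labelled knockdowns of MCF10A and MCF10CA1h, but not in the MCF10A control. Of the 10 leukocyte markers with values, 3 or 4 had a mean of at least 10 in each group, so PTPRC does not stand for that list. In bulk RNA, fewer cells making a signal and less of its RNA per cell cannot be told apart.

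**Figure D1:**
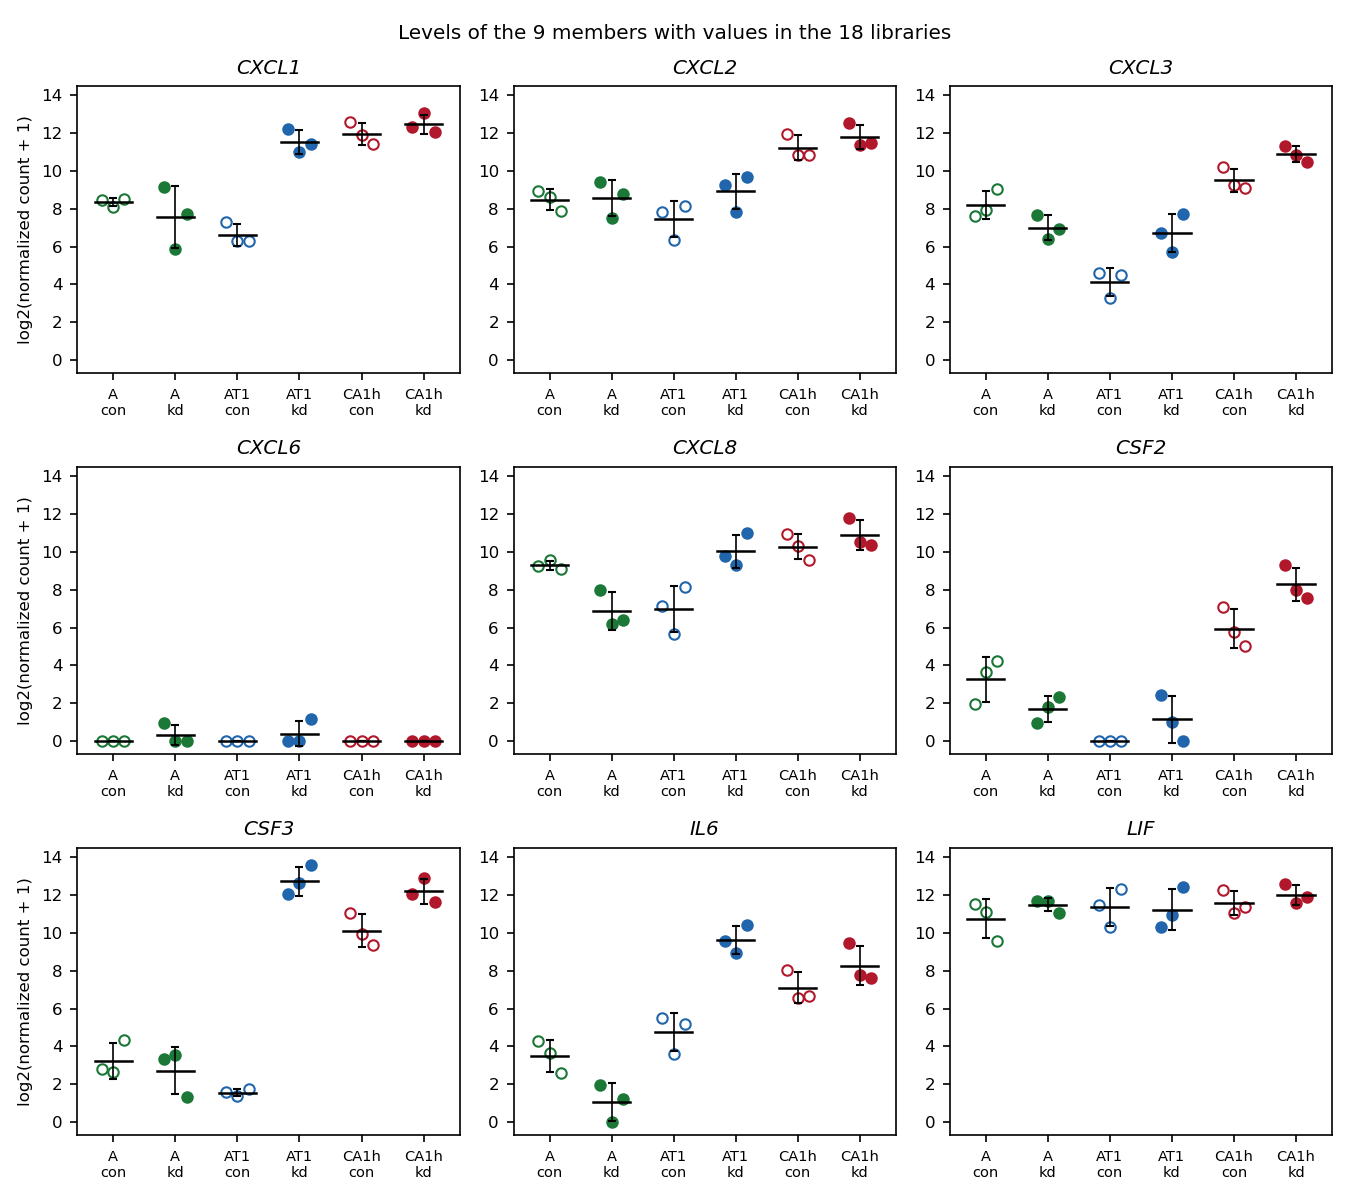
Level of each of the 9 members with values, as log2(normalized count + 1) on the vertical axis, in the control (con, open circles) and labelled knockdown (kd, filled circles) of MCF10A (A, green), MCF10AT1 (AT1, blue) and MCF10CA1h (CA1h, red). Circles are libraries a, b and c from left to right, the long bar is the mean and the whiskers are 1 SD (n = 3). CSF3 went from near 0 in the MCF10AT1 control to 4218 or more in the labelled knockdown of that line, whereas the control and labelled knockdown of each line overlapped for LIF.

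The first question was how the 3 lines differ before METTL3 is targeted. Among the negative control lines, the mean was lowest in MCF10AT1 for 6 of the 8 members tested, all but IL6 and LIF, and highest in MCF10CA1h for all 8. MCF10AT1 was lower by the test than MCF10A for 4 (CXCL1, CXCL3, CXCL8 and CSF2) and higher for none of the 8, where 14.7% of all genes tested were lower. MCF10CA1h was higher than MCF10A for 5 (CXCL1, CXCL2, CSF2, CSF3 and IL6; 19.0% of all genes were higher) and higher than MCF10AT1 for 7, all but LIF (11.0% of all genes). CSF2 and CSF3 had means under 10 in MCF10AT1 and passed the filter on low values through the other lines. Of the other 6 members, 3 were lower in MCF10AT1 than in MCF10A and 5 were higher in MCF10CA1h than in MCF10AT1, with median log2 differences of -1.38 and 3.54 against -0.01 and 0.05 over all genes. Between MCF10CA1h and MCF10A the median of the 8 was 2.72, against -0.06. The libraries of the lines did not overlap for 5, 7 and 7 members (19.3%, 31.4% and 21.3% of all genes in these directions), CSF2 and CSF3 included. The 3 comparisons share control libraries, and CXCL6 was too low to be tested.

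CXCL1, the founding ligand of this group, was listed at 346, 274 and 368 in control replicates a, b and c of MCF10A, at 155, 76.4 and 78.5 in MCF10AT1 and at 6101, 3766 and 2758 in MCF10CA1h. No values overlapped between the lines. The level was lower in MCF10AT1 than in MCF10A (log2 difference -1.73, standard error 0.36, adjusted p = 0.00964) and higher in MCF10CA1h than in MCF10A (3.60, standard error 0.36, adjusted p = 0.00018). CXCL3 had the same order with wider gaps at the low end. It was listed at 196, 244 and 525 in MCF10A, at 23.1, 8.74 and 21.2 in MCF10AT1 and at 1163, 601 and 539 in MCF10CA1h. Its difference between MCF10AT1 and MCF10A was -4.08 (standard error 0.49, adjusted p = 0.00101), and the one between MCF10CA1h and MCF10A, 1.30, did not pass (adjusted p = 0.062), although the libraries did not overlap. For CXCL2, which shares part of its transcript sequence with CXCL3, the values were 493, 386 and 231 in MCF10A, 230.2, 80.0 and 277 in MCF10AT1 and 4042, 1814 and 1856 in MCF10CA1h. Here the first pair of lines overlapped (log2 difference -1.03, adjusted p = 0.143), and MCF10CA1h stood above MCF10A by 2.75 (standard error 0.51, adjusted p = 0.00325). CXCL8 (interleukin 8), at the other end of the cluster, was listed at 604, 752 and 543 in MCF10A, at 141, 50.1 and 278 in MCF10AT1 and at 1945, 1292 and 763 in MCF10CA1h. It was lower in MCF10AT1 than in MCF10A by -2.31 (standard error 0.56, adjusted p = 0.0167), while MCF10CA1h did not differ from MCF10A by the test (0.98, adjusted p = 0.186). CXCL6 was listed at 0 in all 9 control libraries.

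The colony-stimulating factors were close to undetected in MCF10AT1. CSF3 was listed at 5.84, 5.11 and 19.2 in MCF10A, at 1.97, 1.55 and 2.28 in MCF10AT1 and at 2139.8, 973 and 660.4 in MCF10CA1h. MCF10CA1h exceeded MCF10A by 6.88 on the log2 scale (standard error 0.57, adjusted p = 8.54e-05), the largest difference of any member in that comparison, and the lower level in MCF10AT1 than in MCF10A did not pass (adjusted p = 0.0512). CSF2 was listed at 2.80, 11.5 and 17.7 in MCF10A, at 0 in all 3 libraries of MCF10AT1 and at 133, 53.4 and 31.1 in MCF10CA1h. No fold is given against MCF10AT1, which was lower than MCF10A (adjusted p = 0.0135) and than MCF10CA1h (adjusted p = 0.000753). MCF10CA1h was higher than MCF10A by 2.68 (standard error 0.74, adjusted p = 0.0184).

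IL6 and LIF did not share a pattern. IL6 was listed at 18.3, 11.5 and 5.07 in MCF10A, at 43.5, 11.1 and 35.9 in MCF10AT1 and at 266, 94.1 and 101 in MCF10CA1h. Its mean in MCF10AT1 lay above that in MCF10A, unlike those of the chemokines, without passing the test (log2 difference 1.25, adjusted p = 0.162). MCF10CA1h was higher than MCF10A by 3.60 (standard error 0.65, adjusted p = 0.00302) and than MCF10AT1 by 2.34 (standard error 0.65, adjusted p = 0.0307). LIF was listed at 2974, 2213 and 763 in MCF10A, at 2811, 1288 and 5072 in MCF10AT1 and at 5042, 2168 and 2633 in MCF10CA1h, so the 3 lines overlapped and no test passed (adjusted p from 0.293 to 0.821). The remaining differences between MCF10CA1h and MCF10AT1 were 8.58 for CSF3, 5.38 for CXCL3, 5.34 for CXCL1, 3.78 for CXCL2 and 3.30 for CXCL8, with adjusted p of at most 0.00357. Some of these calls rest on single libraries. CXCL8 and CSF2 no longer passed between MCF10AT1 and MCF10A without MCF10A control b or c (2 of 8 members called), and CSF3 and CXCL2 passed there without MCF10AT1 control c (6 called). In that comparison CSF2 also lost its call with a pseudocount of 5 (adjusted p = 0.0588), and CSF3 passed with one of 0.5 (0.0427) and in the fit of all 18 libraries (0.0396). In the other comparisons, CSF2 was lost between MCF10CA1h and MCF10A without MCF10CA1h control a or b, CXCL3 passed there with a pseudocount of 5 (adjusted p = 0.0486) and without MCF10A control c or MCF10AT1 control b or c, and IL6 was lost between MCF10CA1h and MCF10AT1 without MCF10AT1 control b or any 1 of the 3 MCF10CA1h controls.

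**Figure D2:**
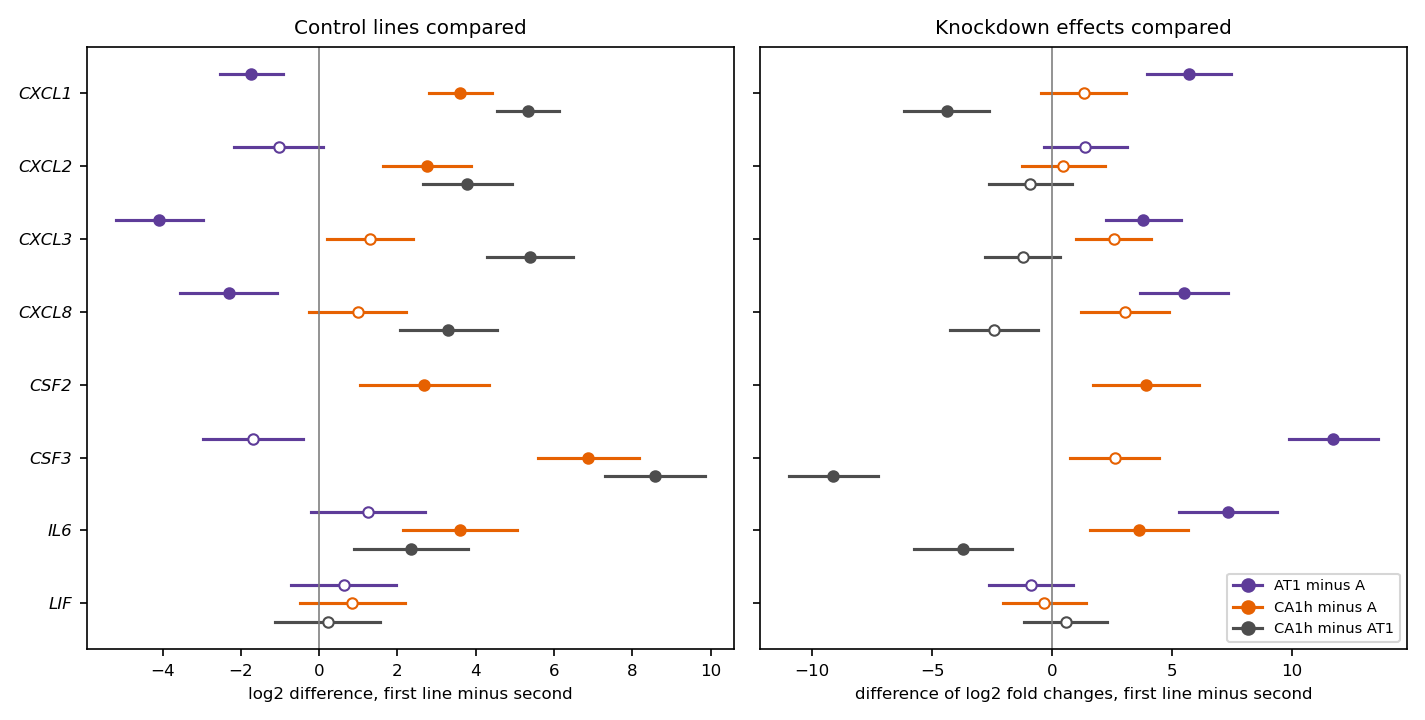
Differences between lines for the members tested, with 95% intervals as horizontal lines and filled circles where the adjusted p was under 0.05. On the left, the log2 difference of the control lines, where MCF10CA1h minus MCF10AT1 (grey) was above 0 for each member drawn and filled for all of them but LIF. On the right, the difference of the log2 fold changes from control to labelled knockdown, where MCF10AT1 minus MCF10A (purple) was filled for 5 members. Comparisons of CSF2 that rest on groups at 0 are not drawn.

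The next question was what differed between the labelled knockdown and the control within each line. The 3 lines gave 3 different pictures. In MCF10A, 1 of the 5 members tested was lower (CXCL8) and none higher. In MCF10AT1, 4 of 6 were higher, and so was CSF3, which passed the filter on low values only through the labelled knockdown and is not counted. In MCF10CA1h 3 of 8 were higher. Of all genes tested, 1.49% were lower in MCF10A, 7.07% higher in MCF10AT1 and 7.91% higher in MCF10CA1h. Among the members tested, the labelled knockdown and control libraries did not overlap for the members called and no others (13.4%, 17.3% and 17.4% of all genes in these directions).

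In MCF10A the interleukin 8 gene fell. CXCL8 was listed at 257, 73.0 and 83.2 in the labelled knockdown, each below every control library, and the mean went from 633 ± 108 to 138 ± 103 (SD, n = 3; log2 fold change -2.42, standard error 0.45, adjusted p = 0.0338). This call was lost when control b, control c, labelled knockdown b or labelled knockdown c was left out, with log2 fold changes from -2.99 to -2.09 and adjusted p of up to 0.127, and also without the intensity trend (adjusted p = 0.079). CXCL3 was listed at 203, 82.0 and 122, which overlapped with the control (log2 fold change -1.20 with a standard error of 0.44, adjusted p = 0.2). The CXCL1 values of 560.2, 56.5 and 209 spread on both sides of those in the control (-0.79, standard error 0.69, adjusted p = 0.603). CXCL2 was listed at 670.3, 183 and 439 (0.10, standard error 0.47, adjusted p = 0.945), and LIF at 3353, 3352 and 2169.7 (0.76, standard error 0.46, adjusted p = 0.432). Over the 5 members tested the median log2 fold change was -0.79, against -0.0035 over all genes. IL6, CSF2, CSF3 and CXCL6 had means under 10 over the 6 libraries and were not tested. In the labelled knockdown IL6 was listed at 2.86, 0 and 1.29, CSF2 at 0.90, 2.45 and 4.05, CSF3 at 9.16, 10.4 and 1.44 and CXCL6 at 0.91, 0 and 0. Each IL6 value there was below every control library. With the replicate letter as a block the number of all genes called went from 409 to 1172, and CXCL8 stayed the member called. The marker lists differed between these groups too. Of the epithelial markers 1 of 12 was higher (KRT5), with sums of 365321 to 402942 against 331844 to 468405 in the control, and none of the 4 fibroblast, 3 endothelial and 4 leukocyte markers tested was called. Of all 15416 genes tested in MCF10A, 409 were called in either direction, 230 of them lower and the rest higher. The leukocyte sum was 152 to 216 against 274 to 554, with MPO listed at 0 in the labelled knockdown, and the endothelial sum 342 to 537 against 60.6 to 239, with VWF, TIE1 and CLDN5 at 0 there. The fibroblast sum was 1642 to 4707 against 1852 to 2194, and the part of these lists in the member values was not tested.

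**Figure D3:**
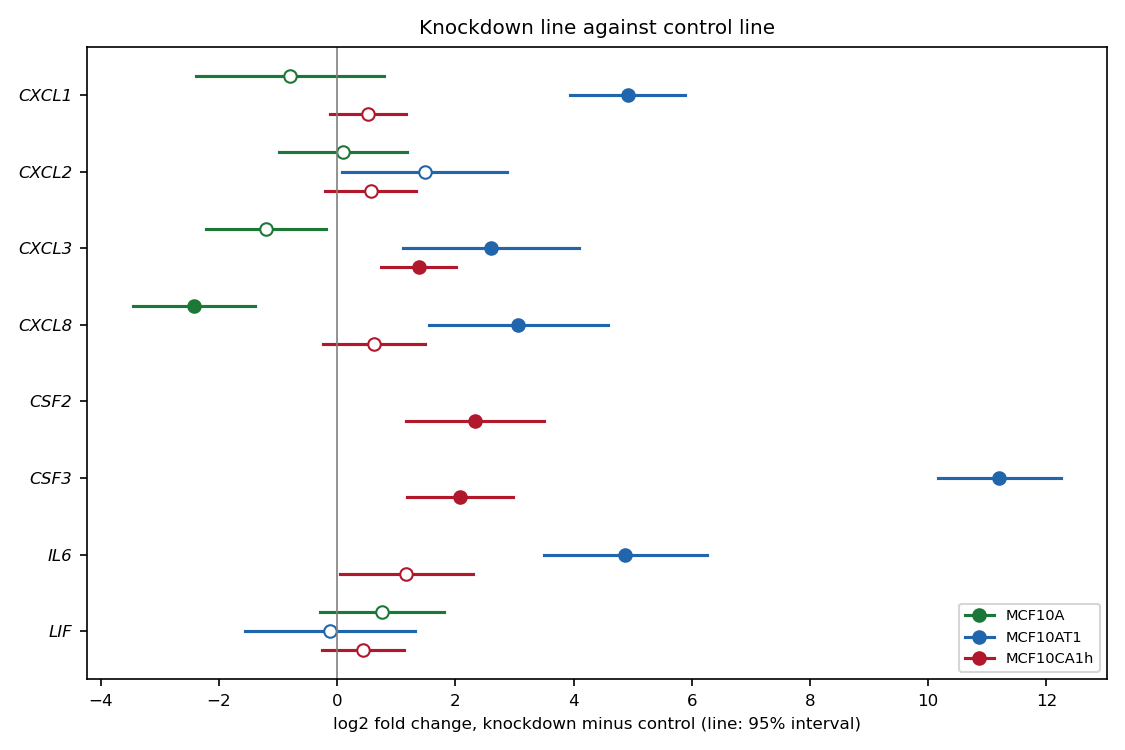
Log2 fold change from control to labelled knockdown (horizontal axis) of each member tested in MCF10A (green), MCF10AT1 (blue) and MCF10CA1h (red), with 95% intervals (n = 3 against 3 libraries). Filled circles have an adjusted p under 0.05. CXCL8 and CXCL3 lie left of 0 in MCF10A and right of 0 in both other lines, and CSF3 in MCF10AT1 lies far to the right of all others at 11.20.

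In MCF10AT1 the labelled knockdown held far more of most of these signals. CSF3 was listed at 4218, 6303 and 12190.0, where no control library exceeded 2.28, and the mean was 7570.4 ± 4134 against 1.93 ± 0.366 (SD, n = 3; log2 fold change 11.20, standard error 0.45, adjusted p = 1.87e-05). CSF3 passed the filter on low values only through these libraries, and so had to differ, and the size of its change rests on the pseudocount, with 9.95 at a pseudocount of 5 and 11.47 at one of 0.5. CXCL1 rose from 103 ± 45.1 to 3178 ± 1415, with labelled knockdown libraries at 4762, 2039 and 2733 (log2 fold change 4.92, standard error 0.42, adjusted p = 0.000239). IL6 rose from 30.1 ± 17.0 to 869 ± 453, with libraries at 756, 483 and 1367 (4.88, standard error 0.60, adjusted p = 0.00131). These 3 genes kept their calls with any 1 library left out, with log2 fold changes of 10.79 to 11.55 for CSF3, 4.58 to 5.25 for CXCL1 and 4.29 to 5.23 for IL6.

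The other chemokines of MCF10AT1 moved by less and nearer to the threshold. CXCL8 rose from 156 ± 114 to 1197 ± 756, with libraries at 898, 637 and 2057 (3.06, standard error 0.66, adjusted p = 0.0188). CXCL3 rose from 17.7 ± 7.81 to 121 ± 79.7, with libraries at 104, 52.1 and 208 (2.60, standard error 0.65, adjusted p = 0.0342). Both calls were lost without control a, labelled knockdown a or labelled knockdown c, and that of CXCL3 also without control b or c, which left 3 or 4 members called, CSF3 among them. Both were also lost, at adjusted p of 0.0537 for CXCL8 and 0.0708 for CXCL3, when all libraries were scaled to equal sums. CXCL2 was listed at 603, 229.6 and 807 and overlapped with the control (1.48, standard error 0.61, adjusted p = 0.159). With the replicate letter as a block CXCL2 passed (adjusted p = 0.00494), 6 members were called with CSF3 included, and the number of all genes called went from 2091 to 3939. LIF was listed at 1296, 1990.2 and 5497 and had the mean nearest to its control, 2928 ± 2252 against 3057 ± 1904 (-0.12, standard error 0.63, adjusted p = 0.923). CSF2 was listed at 4.44, 0.96 and 0 and CXCL6 at 0, 0 and 1.22, below the filter. The median of the 6 members tested other than CSF3 was 2.83, against 0.02 over all genes.

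Other markers moved in the same libraries. Of the 12 epithelial markers, 7 were lower in the labelled knockdown of MCF10AT1 and none higher, where 5.96% of all genes were lower and 7.07% higher. CDH1 (E-cadherin) was at 40.9 ± 34.7 against 3906 ± 2051 and EPCAM at 107 ± 24.7 against 3785 ± 439. The median log2 fold change of the 12 was -2.72. Their summed level was 109699 to 203309 there, against 145938 to 232782 in the control. ESRP1, counted among the 7, had a mean under 10 in the labelled knockdown and passed the filter only through the control. Of 10 fibroblast markers, 6 were tested and 2 were higher (THY1, 2040.0 ± 734 against 1.53 ± 0.574, and COL3A1, 811 ± 412 against 0.75 ± 1.30, both under the filter's minimum in the control). Their sum was 2824 to 4584 against 470 to 740.0, with LUM under 1 in both groups. Of 12 leukocyte markers, 10 had values and 3 were tested, and LAPTM5 was higher (254 ± 36.7 against 9.15 ± 3.55). LAPTM5 too was under the filter's minimum in the control and passed it only through the labelled knockdown. The leukocyte sum was 1999 to 2658 against 645 to 1459, with PTPRC, LYZ, CD3E, MPO and CD163 listed at 0 in the labelled knockdown. Of 8 endothelial markers, 1 was tested and none called, with CDH5 and CLDN5 at 0. The part of these markers' sources in the member values was not tested.

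In MCF10CA1h, where most members were already high in the control, the colony-stimulating factors and CXCL3 rose. CSF2 was listed at 624, 251 and 189.6 in the labelled knockdown, each above every control library, with means of 355 ± 235 against 72.5 ± 53.6 (log2 fold change 2.33, standard error 0.53, adjusted p = 0.017). CSF3 was listed at 4213, 7727 and 3185 and rose from 1258 ± 779.7 to 5042 ± 2382 (2.08, standard error 0.40, adjusted p = 0.00835). CXCL3 was listed at 2549, 1841 and 1413 and rose from 768 ± 344 to 1934 ± 574 (1.38, standard error 0.28, adjusted p = 0.0112). All 3 kept their calls without any 1 library. They did not keep them without the intensity trend (adjusted p of 0.0667 to 0.0871) or in the fit of all 18 libraries (0.128 to 0.303), in which the 3 lines share 1 estimate of the spread.

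The other members of MCF10CA1h overlapped between the groups. CXCL1 was listed at 5134, 8448 and 4302 (log2 fold change 0.52, standard error 0.29, adjusted p = 0.276), CXCL2 at 5963, 2628 and 2839.9 (0.57, standard error 0.35, adjusted p = 0.319) and CXCL8 at 3614, 1484 and 1317 (0.63, standard error 0.39, adjusted p = 0.329). All these estimates were above 0, as were those of the cytokines. IL6 was listed at 706, 215 and 193 (1.17, standard error 0.50, adjusted p = 0.162) and LIF at 6188, 3053 and 3798 (0.44, standard error 0.31, adjusted p = 0.395). CXCL6 stayed at 0 in all 6 libraries. The median of the 8 members tested was 0.90, against -0.02 over all genes. Of the epithelial markers 6 of 12 were higher and none lower in these libraries, where 7.91% of all genes were higher and 4.85% lower. Their summed level was 512104 to 569354 against 368227 to 400996. The leukocyte sum was 580 to 765 against 804 to 858, although LAPTM5 and CSF1R were called higher and CD14 lower, of 4 tested. The fibroblast sum was 2756 to 2841 against 1484 to 1822, with DCN and FAP called higher and COL3A1 lower, of 8 tested. The endothelial sum was 47.3 to 78.9 against 106 to 144, with PECAM1 called lower, of 2 tested. PTPRC was under 1 in both groups and CD3E at 0 in both, and the part of these lists in the member values was not tested.

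**Figure D4:**
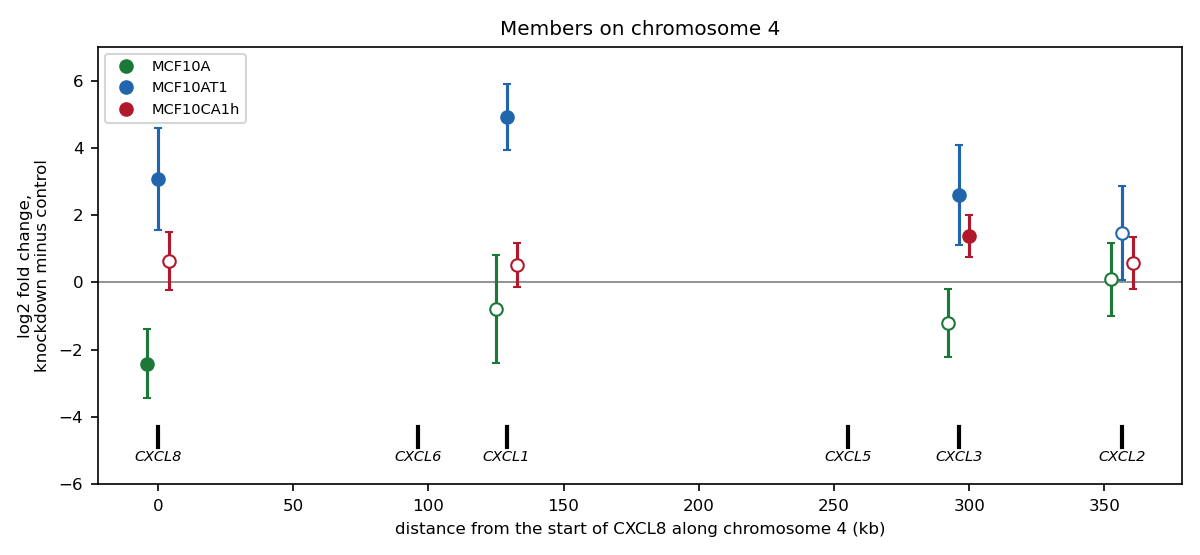
Log2 fold change from control to labelled knockdown (vertical axis, with 95% intervals) of the chemokine members at their place on chromosome 4, as distance in kb from the start of CXCL8 (horizontal axis). Circles of MCF10A and MCF10CA1h are shifted slightly to the left and right, filled circles have an adjusted p under 0.05, and black ticks mark the 6 genes. In MCF10AT1 the estimates are 3.06 at CXCL8, 4.92 at CXCL1 (128.9 kb away), 2.60 at CXCL3 (296.1 kb) and 1.48 at CXCL2 (356.5 kb).

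Whether these effects differed between lines was tested directly, in 1 fit of all 18 libraries. CSF3 and IL6 had means under 10 in the MCF10A labelled knockdown, CSF3 also in the MCF10AT1 control, and CSF2 in groups of both lines, so their differences rest in part on values near 0. The fold change in MCF10AT1 exceeded that in MCF10A for CSF3, IL6 and 3 of the 5 other members, where 11.2% of all genes were called in that direction. The differences were 11.73 for CSF3 (standard error 0.87, adjusted p = 7.81e-08), 7.33 for IL6 (standard error 0.96, adjusted p = 3.77e-05), 5.71 for CXCL1 (standard error 0.83, adjusted p = 0.000107), 5.49 for CXCL8 (standard error 0.87, adjusted p = 0.000229) and 3.80 for CXCL3 (standard error 0.74, adjusted p = 0.00136). CXCL2 (1.38, adjusted p = 0.255), LIF (-0.88, adjusted p = 0.488) and CSF2 (adjusted p = 0.077) did not pass. With the replicate block CXCL2 (adjusted p = 0.0255) and CSF2 (0.0212) passed as well, and CSF2 did so too without MCF10A control a or without labelled knockdown c of MCF10AT1. The fold change in MCF10CA1h was below that in MCF10AT1 for 3 members (8.51% of all genes), by -9.12 for CSF3 (standard error 0.87, adjusted p = 1.3e-06), -4.40 for CXCL1 (standard error 0.83, adjusted p = 0.00132) and -3.70 for IL6 (standard error 0.96, adjusted p = 0.0128). The difference of -2.44 for CXCL8 did not pass (adjusted p = 0.0626). It passed with the replicate block (adjusted p = 0.00338) and without labelled knockdown a of MCF10A, control c of MCF10AT1 or labelled knockdown a of MCF10CA1h. For CXCL3 the 2 lines differed by -1.22 (95% interval -2.79 to 0.34).

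Between MCF10CA1h and MCF10A the fold changes differed for 2 members (3.65% of all genes were called in that direction), IL6 (3.63, standard error 0.96, adjusted p = 0.0379) and CSF2 (3.92, standard error 1.05, adjusted p = 0.0395), both of them near 0 in the MCF10A labelled knockdown. None of the 5 members with means of at least 10 in all 4 groups was called. CXCL8 (3.05, adjusted p = 0.0514) and CXCL3 (2.58, adjusted p = 0.0525) lay just outside the threshold and CSF3 farther out (2.60, adjusted p = 0.102). With the replicate block CXCL8 (adjusted p = 0.00251) and CXCL3 (0.00989) passed, as they did with a pseudocount of 5 (0.0462 and 0.0403). These calls depend on single libraries, and between 0 and 4 members were called with 1 library left out. IL6 no longer passed without MCF10A control a or b, without MCF10A labelled knockdown b or c, or without control b, control c, labelled knockdown a or labelled knockdown b of MCF10CA1h. CSF2 no longer passed without MCF10A control b or c, MCF10A labelled knockdown a or b, labelled knockdown b of MCF10AT1, or the same 4 libraries of MCF10CA1h. CXCL3 and CXCL8 both passed without MCF10AT1 control b, control c or labelled knockdown c, CXCL3 alone also without MCF10A control a or MCF10AT1 labelled knockdown b, and CXCL8 alone without MCF10A labelled knockdown a. The 3 sets of differences share the libraries of each line.

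Members also deviated together between replicates of 1 group. In the MCF10CA1h control, replicate a held the highest value of all 8 members with a group mean of at least 10, although its summed level over all genes, 24572642, lay between those of replicates b (23678374) and c (24832975). In the labelled knockdown of that line, replicate a was highest for 6 of 8 and replicate c lowest for 6 of 8, CSF3 and CXCL1 being highest in replicate b. Replicate b of the MCF10AT1 control, the library with the highest sum, was lowest for 6 of 6 members. In the labelled knockdown of MCF10AT1, replicate c was highest for 6 of 7, all but CXCL1, and in that of MCF10A replicate a was highest for 5 of 5. The MCF10A control was mixed, with 3, 1 and 4 of the 8 members highest in replicates a, b and c. The members of a library are not independent measurements, and no test was made of this pattern.

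**Figure D5:**
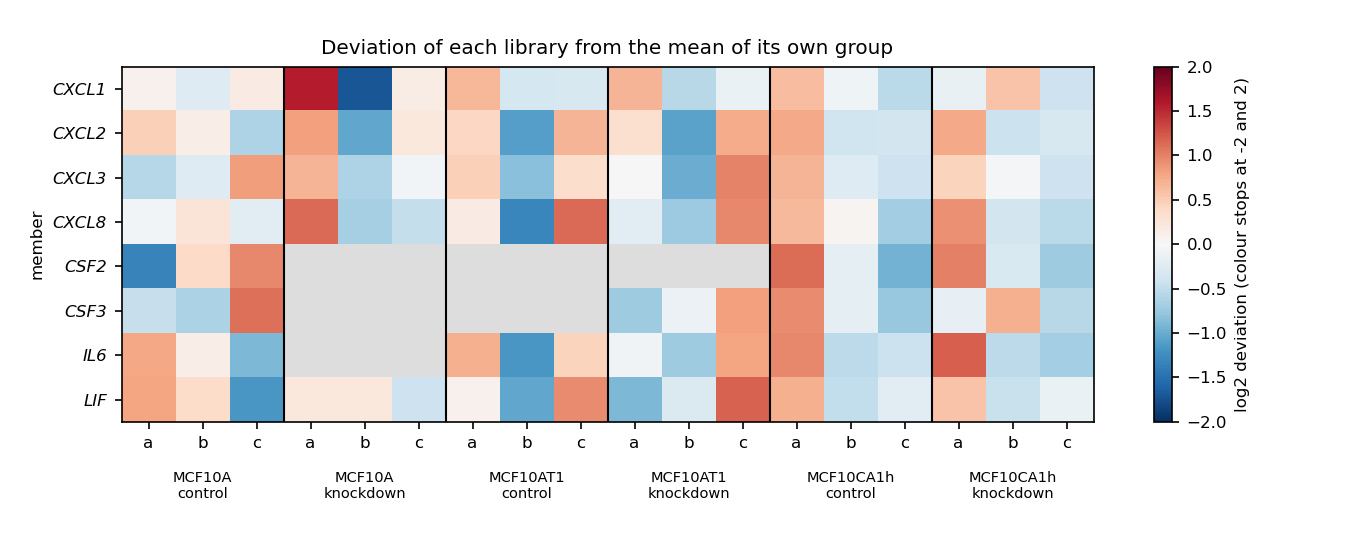
Deviation of each library from the mean of its own group, on the log2(normalized count + 1) scale, for 8 members (rows) in the 18 libraries (columns, in blocks of a, b and c by group). Red is above and blue below the group mean, and grey marks members with a group mean under 10. Replicate a of the MCF10CA1h control is red for all 8 members, and replicate b of the MCF10AT1 control is blue for all 6 shown.

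The receptors of these signals were measured in the same cells. CXCR1 is a receptor of CXCL8. Its values in MCF10AT1 were 59.0, 77.7 and 110.2 for the control and 0, 0 and 1.22 for the labelled knockdown. The change was -5.95 on the log2 scale (standard error 0.68, adjusted p = 0.00092), opposite in direction to that of CXCL8. CXCR1 passed the filter on low values there only through the control, and so had to differ. CXCR1 was also near 0 after the change, so the size of that change rests on the pseudocount. In MCF10A it was listed at 16.9, 39.4 and 110.0 in the control and at 20.8, 16.0 and 32.3 in the labelled knockdown (-0.90, adjusted p = 0.519), and in MCF10CA1h no library exceeded 6.90. ACKR1, a decoy receptor that binds many of these chemokines without signalling, was listed at 0 in the MCF10AT1 control and at 1276, 1783 and 2137 in the labelled knockdown. CXCR2, the main receptor of the other chemokines, reached no more than 2.27 in any library, and the CSF3 receptor CSF3R no more than 9.39. The receptor chains of IL6 and LIF were present and were not called in any line. IL6ST had means of 556 ± 93.4 in the labelled knockdown and 425 ± 513 in the control of MCF10AT1 (1.41, adjusted p = 0.403), IL6R 199.6 ± 20.8 and 144 ± 124 (0.94, adjusted p = 0.437) and LIFR 76.5 ± 16.0 and 56.3 ± 32.8 (0.59, adjusted p = 0.53). CSF2RA was below the filter, and CSF2RB was not analysed here.

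Further chemokines were followed as a group. Of the other CXC chemokines tested, 0 of 3 were called in MCF10A, 1 of 1 was lower in MCF10AT1 (5.96% of all genes) and 2 of 6 were higher in MCF10CA1h (7.91% of all genes). They were CXCL16, a ligand of CXCR6, at 201 ± 40.8 against 535 ± 65.4 in MCF10AT1 (-1.42, adjusted p = 0.0183), and in MCF10CA1h CXCL10, which attracts T cells (144 ± 78.3 against 12.8 ± 8.38, 3.50, adjusted p = 0.00383), and PPBP, itself a CXCR2 ligand (53.8 ± 17.1 against 6.22 ± 0.840, 2.88, adjusted p = 0.00127). Of the CC chemokines and CX3CL1, 0 of 3 were called in MCF10A, 2 of 5 were higher in MCF10AT1 (7.07% of all genes) and 2 of 3 in MCF10CA1h (7.91% of all genes). CCL20, which attracts CCR6-positive cells, was higher in both, at 444 ± 168 against 108 ± 11.5 in MCF10AT1 (1.96, adjusted p = 0.0118) and at 2707 ± 555 against 404 ± 206 in MCF10CA1h (2.83, adjusted p = 0.000253). The monocyte attractant CCL2 was listed at 0 in the MCF10AT1 control and at a mean of 23.7 ± 22.1 in the labelled knockdown, and CCL5 rose in MCF10CA1h from 6.29 ± 2.73 to 72.3 ± 9.24 (3.41, adjusted p = 0.000637). CCL2, CCL5 and PPBP passed the filter on low values in these lines only through the labelled knockdown, which favoured their calls. The counts above include them and so are not to be read against the shares of all genes. Without them, the genes called higher were CCL20 in both lines and CXCL10 in MCF10CA1h.

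Among other cytokines of the IL6 and haematopoietic families, 1 of 6 was higher and 1 lower in MCF10A. Of all genes 1.49% were lower there and a smaller share higher. In MCF10AT1 2 of 8 were higher and 2 lower (7.07% and 5.96% of all genes), and in MCF10CA1h 1 of 6 was higher (7.91% of all genes). CSF1, the macrophage colony-stimulating factor, rose in MCF10AT1 from 203 ± 116 to 1495 ± 350.0 (3.07, adjusted p = 0.00616), and TSLP, which passed the filter only through the labelled knockdown, was at 30.9 ± 30.7 against 0.623 ± 1.08 (3.87, adjusted p = 0.0493), a call lost in 7 of 12 alternatives (adjusted p of up to 0.192). CTF1 fell there by 4.97 (adjusted p = 0.00139), and both CTF1 and KITLG passed the filter in MCF10AT1 only through the control. Of the genes called in MCF10AT1, CSF1 alone had means of at least 10 in both groups, so the counts there are not to be read against the shares of all genes. KITLG, the ligand of KIT, moved in opposite directions, with 458 ± 89.4 against 82.4 ± 30.9 in MCF10A (2.52, adjusted p = 0.0118) and 0.747 ± 0.653 against 45.1 ± 41.0 in MCF10AT1 (-4.35, adjusted p = 0.0163). CLCF1 did so too, at 117 ± 29.9 against 379 ± 52.9 in MCF10A (-1.71, adjusted p = 0.0163) and a mean of 461 against 216 in MCF10CA1h (1.09, adjusted p = 0.000659). The fold changes of KITLG differed by -6.87 between MCF10AT1 and MCF10A (standard error 0.80, adjusted p = 1.08e-05), and those of CLCF1 by 2.80 between MCF10CA1h and MCF10A (standard error 0.46, adjusted p = 0.00187).

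The inducers of the members and their NF-kB regulators were followed as 27 genes. In MCF10A 1 of 25 tested was lower (1.49% of all genes) and none higher. It was IL1B, a strong inducer of CXCL8, at 245 ± 20.3 against 1904 ± 1314 (-2.73, adjusted p = 0.0184). In MCF10AT1 5 of 24 were higher and 2 lower, where 7.07% and 5.96% of all genes were. RELB, an NF-kB subunit, rose from 167 ± 28.2 to 1373 ± 383 (3.01, adjusted p = 0.000728) and IRAK2, a kinase of IL-1 receptor signalling, from 51.2 ± 42.6 to 384 ± 269 (3.19, adjusted p = 0.0427). NFKB2, TNIP1 and NFKBIE, further members of the NF-kB system, were the others that rose. The AP-1 subunits FOS (-2.55, adjusted p = 0.0174) and JUN (-2.26, adjusted p = 0.00822) were lower. In MCF10CA1h 7 of 25 were higher and 1 lower (7.91% and 4.85% of all genes). IL1B rose from 852 ± 413 to 5917 ± 1472 (2.87, adjusted p = 0.000228), IL1A from 708 ± 196 to 3355 ± 645 (2.26, adjusted p = 0.00013), MYD88, an adaptor of the IL-1 receptor, by 1.15 (adjusted p = 0.000364) and TRAF1 by 1.63 (adjusted p = 0.0444), and CEBPD was the gene that fell. The fold change of IL1B in MCF10CA1h exceeded that in MCF10A by 5.60 (standard error 0.72, adjusted p = 0.000294). Both median log2 fold changes were small, 0.24 in MCF10AT1 and 0.33 in MCF10CA1h.

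Of 10 factors of the decay and stability of AU-rich mRNAs, none was called in MCF10A. ZFP36L2 was lower in MCF10AT1 (1648 ± 380.4 against 4553 ± 1860, -1.39, adjusted p = 0.0496) and KHSRP was lower in MCF10CA1h (-0.37, adjusted p = 0.0367), and both calls were lost in 9 of 15 alternatives, with adjusted p of up to 0.19 and 0.774. Of all genes, 5.96% were called lower in MCF10AT1 and 4.85% in MCF10CA1h. The libraries of 3 of the 10 did not overlap in each of these lines, counted in either direction. Of all genes, 17.3% in MCF10AT1 and 17.4% in MCF10CA1h did not overlap in the higher direction alone. The share in either direction is larger and is not given, so no excess can be read from the 3 of 10. The median log2 fold changes of the 10 were -0.26 and -0.20. Among 8 tested genes that respond to IL6 and LIF, 1 was lower in MCF10A (LCN2, 22.9 ± 15.1 against 128 ± 20.4, -2.63, adjusted p = 0.0356), where 1.49% of all genes were lower. In MCF10AT1 3 were higher and 2 lower (7.07% and 5.96% of all genes), CISH passing the filter only through the control. The acute-phase genes SAA1 (3635 ± 2626 against 491 ± 255, 2.75, adjusted p = 0.0257) and SAA2 (982 ± 712 against 116 ± 44.7, 2.91, adjusted p = 0.0109) rose there with SOCS3, the feedback inhibitor of IL6 signalling (594 ± 106 against 126 ± 26.8, 2.24, adjusted p = 0.00309), while CISH (-3.38, adjusted p = 0.00493) and PIM1 (-2.93, adjusted p = 0.0118) fell. In MCF10CA1h 3 were higher (7.91% of all genes) and none lower, LCN2 (686 ± 110.0 against 331 ± 109.8, 1.10, adjusted p = 0.013), SAA1 (0.90, adjusted p = 0.00239) and SAA2 (0.87, adjusted p = 0.0115).

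Many of these calls of list genes depend on the processing or on single libraries. Of the 35 calls named by rule, 12 were kept in every alternative run, 23 were lost in at least 1 and 8 in at least 5. Those 8 are TSLP, ZFP36L2 and KHSRP, given above, with IRAK2 and SAA1 in MCF10AT1, IL1B and LCN2 in MCF10A and TRAF1 in MCF10CA1h. TRAF1 was lost in 8 of 14 alternatives (adjusted p of up to 0.141), among them without any 1 of the libraries but control c. IRAK2 was lost in 6 of 15 (up to 0.109), with equal sums, without the trend, and without control a or any 1 of the labelled knockdown libraries. SAA1 was lost in 5 of 15 (up to 0.0963), without the trend and without control a or c or labelled knockdown a or b. IL1B and LCN2 in MCF10A were each lost in 5 of 15 (up to 0.0842 and 0.122), both without the trend and without control b, labelled knockdown b or labelled knockdown c, IL1B also without labelled knockdown a and LCN2 without control c. In MCF10CA1h CXCL10, CCL5, CLCF1, IL1A and SAA1 lost their calls in the fit of all 18 libraries and in no other alternative. CEBPD in MCF10CA1h was lost in 7 of 15 alternatives, and NFKBIE in 6 of 15 in MCF10AT1 and in 7 of 15 in MCF10CA1h. Marker calls were lost as well. KRT5 was lost in 8 of 15 in MCF10A (adjusted p of up to 0.332) and in MCF10CA1h (0.932), and KRT14 in 6 of 14 in MCF10AT1 (0.185). In MCF10CA1h LAPTM5 was lost in 9 of 15 (up to 0.828), PECAM1 in 7 of 15 (0.607) and COL3A1 in 6 of 14 (0.543). No other marker call was lost in more than 3 alternatives, the number for CD14 in MCF10CA1h. ACKR1, CCL2, CXCR1, CTF1, CISH and KITLG in MCF10AT1 and PPBP and CCL5 in MCF10CA1h had a mean under 10 in 1 group, so they too passed the filter through the other. The same holds for the markers LAPTM5, ESRP1, THY1 and COL3A1 in MCF10AT1.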

How the data were processed

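The labels place 18 libraries in 6 groups by cell line and genotype. Per the labels and the methods, RNA was extracted with TRIzol and stranded libraries were made after ribosomal RNA depletion, while the labels and a heading name polyA RNA, and which is right remains unknown. Reads were assigned to hg38 transcripts by the authors using kallisto 0.46.1, with gene totals from tximport and normalization in DESeq2 1.26.0 (R 4.1.1). The annotation release is not given in the sources used here. The deposited values are these normalized counts, a signal between libraries with no correction for length. Between 13.3% and 36.3% of low values lay at whole multiples (within 0.02) of the most frequent low value, so reads were not recovered, no count test was run and the depth behind each value is unknown. Of 60579 deposited rows, 24639 were empty, without a gene identifier, 7 held a lone number and 35933 held a gene with values. Where genes shared a symbol (294 genes), the one with the higher values was used.

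Differential expression was tested with limma 3.58.1 in R 4.3.3 (lmFit, eBayes with an intensity trend) on log2(normalized count + 1), after genes averaging under 10 in the fitted libraries were dropped. There was 1 fit per line, 1 of the 9 control libraries and 1 of all 18, which gave the differences of effects between lines as interaction contrasts. The fits were tested on simulated data. Python 3.11.15, pandas 2.3.3 and NumPy 2.4.6 gave the other values, and matplotlib 3.10.9 the figures. Promoter sequences are from RefSeq and gene positions from GENCODE.

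Replicates are lettered a, b and c in the titles. Deviations from the group means of libraries with the same letter, over 15897 genes, correlated at 0.22, 0.20 and 0.12 in MCF10A and at 0.11, 0.29 and 0.48 in MCF10AT1, so the letters were taken to pair the samples there. They correlated at -0.01, 0.02 and 0.05 in MCF10CA1h, where the letters were not taken to pair them. Between different letters the values ran from -0.17 to 0.01 in MCF10A and from -0.41 to 0.25 in MCF10AT1. The 0.25 of MCF10AT1 control b with labelled knockdown a was above the 0.11 of letter a, so the pairing of a is not clear there. The fits given first have no block.

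The members and lists were chosen with earlier results of these data known. The lists held receptors, other CXC chemokines, CC chemokines with CX3CL1, other IL6-family and haematopoietic cytokines, inducers and NF-kB regulators, factors of AU-rich mRNAs, IL6 and LIF response genes, and markers of epithelial cells, fibroblasts, endothelial cells and leukocytes. All members, every receptor and up to 4 called genes of each list and line with the largest change are named, and for CXCL8, CSF3 and IL6 the 3 genes most like them. Marker genes other than PTPRC, and SOCS3, NFKB2, TNIP1, NFKBIE and CEBPD, were chosen after their values were seen. The fits were repeated with pseudocounts of 0.5 and 5, no filter or a mean of at least 50, no trend, equal sums, rescaling by median-of-ratios factors, a joint fit, the replicate block and each library left out.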

Additional observations from a re-analysis of the deposited data

Results flagged for a closer look

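The change from control to labelled knockdown differed between lines, by the interaction test in limma, for 10 pairs of a member and a line contrast. On the log2 scale the change in MCF10AT1 exceeded that in MCF10A by 11.73 for CSF3, 7.33 for IL6, 5.71 for CXCL1, 5.49 for CXCL8 and 3.80 for CXCL3. That in MCF10CA1h exceeded the one in MCF10A by 3.63 for IL6 and 3.92 for CSF2. Against MCF10AT1, the change in MCF10CA1h differed by -9.12 for CSF3, -4.40 for CXCL1 and -3.70 for IL6. Of these, IL6 and CSF2 between MCF10CA1h and MCF10A are the pairs whose calls were lost without single libraries, with adjusted p from 0.00385 to 0.102 for IL6 and from 0.00965 to 0.119 for CSF2 over the alternatives. Groups of 3 libraries were too small for a check of single outlying samples.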

How the results depend on the processing

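The number of members called moved by more than 1.5 times under these settings. In MCF10A 1 was called and 0 without the intensity trend, and 0 to 1 with 1 library left out. In MCF10AT1 5 were called, CSF3 included, 3 with equal sums per library, and 3 to 5 with 1 library left out. In MCF10CA1h 3 were called, 0 without the trend, 0 in the joint fit and 7 with the replicate block, which added CXCL2, CXCL8, IL6 and LIF. The letters were not taken to pair the samples there. For the difference of effects between MCF10CA1h and MCF10A, 2 were called, 1 with a pseudocount of 0.5, 3 with one of 5, 0 without a filter, 1 with a mean of at least 50, 1 with equal sums, 4 with the replicate block, which added CXCL3 and CXCL8, and 0 to 4 with 1 library left out. Between the controls of MCF10AT1 and MCF10A 4 were called, and 2 to 6 with 1 library left out. The cause was not tested. The replicate block also added CXCL8 to the 3 members whose effect differed between MCF10CA1h and MCF10AT1 (adjusted p = 0.00338), and beyond the calls named here and above it changed no call of a member. Counts over all genes moved as well. They were 409 in MCF10A, 237 without the trend and 1172 with the replicate block, 2091 in MCF10AT1, 3939 with the block and 5146 in the joint fit, 1929 in MCF10CA1h, 1123 without the trend and 248 in the joint fit, and 849 for MCF10CA1h against MCF10A effects, 1283 with the block. With 1 library left out they ranged from 52 to 1418 in MCF10A, from 1020 to 2439 in MCF10AT1, from 1089 to 1785 in MCF10CA1h and from 470 to 1220 for MCF10CA1h against MCF10A effects. For the controls they ranged from 1661 to 8142 between MCF10AT1 and MCF10A (4391 with all), from 3675 to 7623 between MCF10CA1h and MCF10A (5920 with all) and from 1608 to 5593 between MCF10CA1h and MCF10AT1 (3410 with all), so the shares of all genes given beside the members move with single libraries.

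Estimates that changed sign were all uncalled. With 1 library left out the log2 fold change ranged from -1.58 to 0.067 for CXCL1 and from -0.32 to 0.62 for CXCL2 in MCF10A, and from -0.72 to 0.35 for LIF in MCF10AT1. For IL6ST it ranged from -0.69 to 0.48 in MCF10A and from -0.46 to 0.46 in MCF10CA1h, and with equal sums it was 0.043 and -0.052. For LIFR in MCF10CA1h it ranged from -0.32 to 0.012. For LIF between the controls of MCF10CA1h and MCF10AT1 the range was -0.30 to 0.69, and for the difference of effects between MCF10CA1h and MCF10A it was -0.049 to 0.89 for CXCL2 and -0.72 to 0.26 for LIF.

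With 3 libraries a group and an unknown number of reads behind each value, members near 0 (CXCL6 in all lines, CSF2 in MCF10AT1, IL6 and CSF3 in MCF10A) have differences whose size rests on the pseudocount, those of IL6, CSF3 and CSF2 between lines included, and a difference that misses the threshold is not shown to be absent. Where 1 library is left out, its group keeps 2 libraries and the spread is pooled over the fit.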

Other observations

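The genes whose pattern over the 18 libraries was most like that of a member were found among 12460 genes with a mean of at least 50, by Pearson's r of log2(normalized count + 1). For CSF3 they were UBE2L6 (r = 0.97), BTN2A1 (0.97) and HOXA11 (0.97). For IL6 they were COL6A1 (0.96), IFITM1 (0.96) and FKBP10 (0.95). For CXCL8 they were BISPR (0.92), ZRANB3 (0.90) and GCNT2 (0.90). The libraries fall into 6 groups of 3 from clonal lines, so these values describe mainly the order of group means, and the best of so many genes is high by selection. No p is given.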
